A study of Mus musculus with 26 samples.

Results

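The collagen genes are described here across 26 mouse exon arrays. Members were taken by symbol: every gene annotated with a single symbol of the form Col, number, a, number and with at least 4 probe sets. In all, 42 of the 18341 genes measured on the arrays met that rule. Col26a1, Col6a4, Col6a5 and Col6a6 carry older names in the platform annotation and entered through their current RefSeq symbols. Col28a1, a von Willebrand domain collagen, had under 4 probe sets and was left out, and Col22a1, a FACIT chain of tissue junctions, was not analysed here because the annotation used names no probe set for it. The gene value is a median on the log2 scale, taken over the brighter 50% of a gene's probe sets by their mean in the 26 arrays. An exon array carries several probe sets per gene, and the members had from 5 (Col10a1, Col6a5) to 121 (Col7a1).

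Collagens are secreted proteins of 3 chains wound into a triple helix, built from repeats of glycine and 2 further residues, with proline as a frequent neighbour of the glycine. Fibrillar collagens form the cables of skin, bone, tendon and cartilage. Type IV collagen forms the sheet-like net of basement membranes, which appear early in the mouse embryo and in embryoid bodies beneath the outer endoderm layer. Type VI collagen makes beaded filaments around cells, the network collagens VIII and X make hexagonal lattices, the FACIT chains sit on the surface of fibrils, the multiplexins lie at basement membranes and carry heparan or chondroitin sulfate chains, and the transmembrane collagens span the cell membrane.

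The samples were labelled as mouse ES (embryonic stem) and EB material, and each was called an embryoid body cell, an embryoid body being the aggregate in which ES cells differentiate. The labels give a strain, with 14 arrays (ES1 to ES14) labelled 129S2/SvPas and 12 (ES15 to ES26) labelled C57BL/6. They give no treatment, day of differentiation, age, sort or batch, and do not say which samples are ES cells. Strain and title order run together, so the strain and anything else that followed the titles cannot be told apart. Nothing in the labels says that the samples came from separate cultures. The p-values therefore set a label difference against the spread of these samples within a label, part of which may be technical. That spread also holds differences between runs of titles with unlike marker levels, given below. Arrays that share a label thus cannot be taken as replicates of the same condition. Below, the strain labels are compared with a test, and 5 runs of titles (ES1 to ES12, ES13 and ES14, ES15 to ES20, ES21 to ES24, ES25 and ES26) are described without one.

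Cell type markers set these runs apart and went against a single cell population. The mean gene value of 9 myeloid markers ran from 10.98 to 11.91 in ES1 to ES12 and from 5.38 to 7.96 in the other 14 arrays. That of 8 pluripotency markers lay between 5.30 and 5.87 in ES1 to ES12, between 11.10 and 11.51 in ES21 to ES24, and between 7.34 and 8.78 in the rest. ES13 and ES14 therefore stood apart from the 12 arrays that share their label, and the called differences between labels are given with and without them, as counts or by gene. In bulk RNA, fewer cells of a collagen-making type and less collagen RNA per cell cannot be told apart. The files hold no detection call. As a guide to dim signals, 95% of the values of 296 olfactory and vomeronasal receptor genes lay below 6.14. By that guide 26 collagens were above it in all 26 arrays, Col10a1 was below it in all, and 15 were on both sides. Levels are not compared between genes, since probe sets differ in brightness.

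The sequences upstream of 6 members are shown because these genes stand for the patterns described below: Col1a2 and Col3a1 for the fibrillar chains, Col4a5 for type IV, Col6a1 for type VI, Col8a1 for the network chains, and Col10a1 for the 1 member lower in the arrays labelled C57BL/6. Each is the 250 bases before the RefSeq transcription start on GRCm38.p6, 5′ to 3′ on the gene's strand, all noncoding upstream sequence. Capitals mark the TATA box letters (TATAAA), the CCAAT box letters (CCAAT) and the GC box letters (GGGCGG), each searched on both strands, so a capital stretch may be the reverse complement.
Col1a2, chr6:4505368-4505617, plus strand: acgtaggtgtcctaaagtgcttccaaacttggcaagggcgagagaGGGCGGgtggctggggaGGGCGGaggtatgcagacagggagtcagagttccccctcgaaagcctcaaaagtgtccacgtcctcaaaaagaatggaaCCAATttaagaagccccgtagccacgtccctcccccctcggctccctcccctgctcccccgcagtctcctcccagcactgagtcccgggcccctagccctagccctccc
Col3a1, chr1:45311288-45311537, plus strand: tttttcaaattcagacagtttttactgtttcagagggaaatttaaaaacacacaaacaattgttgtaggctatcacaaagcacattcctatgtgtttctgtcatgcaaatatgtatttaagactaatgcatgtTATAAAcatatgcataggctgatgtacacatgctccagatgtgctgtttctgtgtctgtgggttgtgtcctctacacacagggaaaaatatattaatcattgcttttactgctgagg
Col4a5, chrX:141475169-141475418, plus strand: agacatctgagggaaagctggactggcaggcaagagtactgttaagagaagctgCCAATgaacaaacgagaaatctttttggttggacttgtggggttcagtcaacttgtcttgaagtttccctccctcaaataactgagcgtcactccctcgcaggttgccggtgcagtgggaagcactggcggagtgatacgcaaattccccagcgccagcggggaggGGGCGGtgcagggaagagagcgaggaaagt
Col6a1, chr10:76726045-76726294, minus strand: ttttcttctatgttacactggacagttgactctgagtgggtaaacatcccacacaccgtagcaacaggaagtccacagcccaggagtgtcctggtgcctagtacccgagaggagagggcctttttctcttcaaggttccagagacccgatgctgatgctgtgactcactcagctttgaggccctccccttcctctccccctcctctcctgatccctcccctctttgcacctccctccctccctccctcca
Col8a1, chr16:57754738-57754987, minus strand: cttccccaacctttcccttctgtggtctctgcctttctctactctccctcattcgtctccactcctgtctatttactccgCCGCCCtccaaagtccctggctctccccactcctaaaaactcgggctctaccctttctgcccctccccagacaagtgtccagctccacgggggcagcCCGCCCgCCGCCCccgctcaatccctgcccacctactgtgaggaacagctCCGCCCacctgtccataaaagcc
Col10a1, chr10:34389731-34389980, plus strand: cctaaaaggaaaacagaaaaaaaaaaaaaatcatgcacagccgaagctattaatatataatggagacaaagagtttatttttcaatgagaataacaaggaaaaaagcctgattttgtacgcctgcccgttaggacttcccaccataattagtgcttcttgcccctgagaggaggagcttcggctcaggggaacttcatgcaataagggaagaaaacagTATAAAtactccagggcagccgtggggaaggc

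The table of promoters held 37 such windows for 34 members. TATAAA, searched on both strands, was found in 5 of the 37 (13.5%), against 12.4% of all 32851 windows of the same length. In Col10a1 it began at base -32 from the start, and in Col3a1 at base -117. CCAAT was found in 13 windows (35.1%, against 33.8% of all), among them Col1a2 at base -109 and Col4a5 at base -196. GGGCGG was found in 22 windows (59.5%, against 32.7% of all). Collagen windows were also richer in G and C, with a median of 59.2% against 52.4%, and none of the 3 motifs was found in the Col6a1 window. Matches are letters in a window and were not tested as sites. Several members are next to each other in the genome: Col3a1 and Col5a2, Col4a3 and Col4a4, and Col9a1 and Col19a1 on chromosome 1, Col4a1 and Col4a2 on 8, Col6a4, Col6a5 and Col6a6 on 9, Col6a1 and Col6a2 on 10, and Col4a5 and Col4a6 on X.

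Just over 50% of the collagen genes were higher in the arrays labelled C57BL/6, led by type I, III, IV and V chains. Of the 42 members, 22 were higher and 1 was lower (limma, Benjamini-Hochberg adjusted over 18341 genes, threshold 0.05), against a background of 22.1% of all genes called higher and 21.1% called lower. The median difference, C57BL/6 minus 129S2/SvPas, was 0.36 log2 units for the collagens and 0.00 for all genes. Called and at least 2-fold higher were 15 of the 42 collagens, and 1576 of all 18341 genes. By class, the calls of higher were 7 of 11 fibrillar genes, 4 of 6 type IV, 3 of 6 type VI, 2 of 3 network, 4 of 8 FACIT, both multiplexins, 0 of 4 transmembrane and 0 of 2 others (26 members had an unadjusted p under 0.05, among them 2 transmembrane genes and 1 of the others). Without ES13 and ES14, 24 members were higher and 1 was lower, where 25.2% of all genes were called higher and 25.2% lower, and all 23 members called before kept their call and direction. Without ES1 to ES12, no member was called either way by limma, 2 members had an unadjusted p under 0.05, and 0% of all genes were called higher and 0.00545% lower. That comparison sets 2 arrays against 12 and called 1 of 18341 genes, so the lost calls say little about the members. The differences themselves were about as large in some (2.66 after 3.02 in Col3a1, 1.82 after 2.14 in Col6a3, 1.46 after 1.68 in Col6a1, 1.19 after 1.39 in Col14a1 and 0.58 after 0.58 in Col16a1). They were much smaller in others (0.31 after 2.95 in Col1a1, 0.47 after 1.99 in Col4a2, 0.64 after 2.18 in Col5a1, 0.72 after 2.33 in Col18a1 and 0.02 after 0.43 in Col2a1). In Col4a1 the difference was -0.20 after 2.54. Centring each array on its median gene value moved the median of all genes to -0.13, the split of all genes to 2954 higher and 5738 lower, and that of the collagens to 19 higher and 1 lower.

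**Figure D1:**
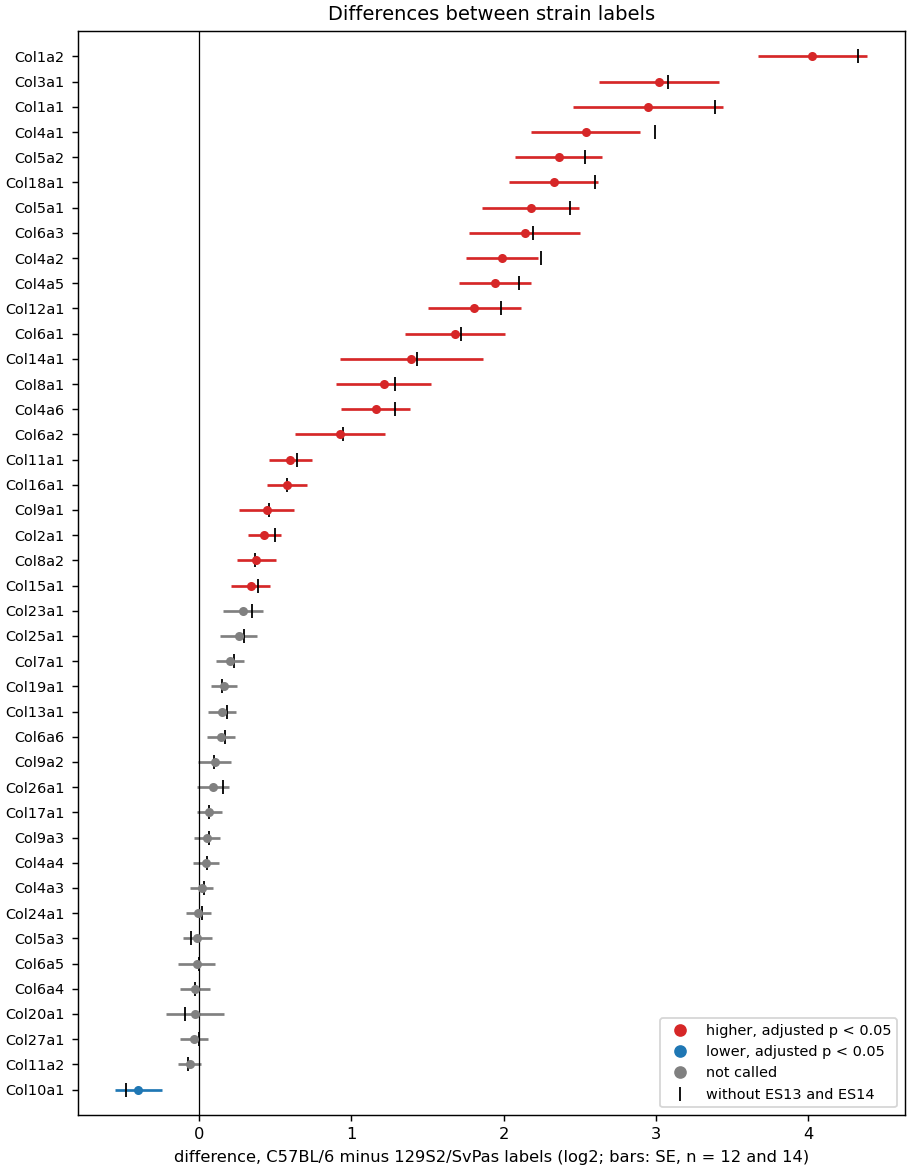
Difference between arrays labelled C57BL/6 and 129S2/SvPas for each of the 42 collagen genes, in log2 units (horizontal axis), with points for the fitted difference, bars for its SE (n = 12 and 14), red for higher, blue for lower and grey for not called, and black ticks for the difference without ES13 and ES14. Col1a2 is at 4.03 and Col10a1 at -0.40, and the ticks lie on the same side of 0 as the points for all 23 called genes.

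Across the title runs, wide differences were more frequent among the members than among all genes, and small ones about as frequent. In 15 of 42 (35.7%), the medians of the 5 runs spanned 2 or more log2 units, as they did in 15.9% of all genes. In 23 (54.8%) the span was under 1, near the 60.4% of all genes, and the median span was 0.8 in both sets. Col6a2, Col9a1, Col15a1 and Col16a1 lay between, with spans of 1.28, 1.02, 1.11 and 1.11. ES15 to ES20 had the highest median for 6 of the 15 and ES25 and ES26 for 9, and neither ES1 to ES12, ES13 and ES14 nor ES21 to ES24 had it for any. Of the 2913 genes in all with such a span, ES1 to ES12 had the highest median in 40.6% and ES13 and ES14 in 7.9%. ES15 to ES20 had it in 19.5%, ES21 to ES24 in 10.1%, and ES25 and ES26 in 22.0%. For 10 members, Col1a1, Col1a2, Col3a1, Col5a1, Col5a2, Col4a1, Col4a2, Col4a5, Col12a1 and Col18a1, all 14 arrays from ES13 to ES26 lay above all 12 from ES1 to ES12, as they did for 6.42% of all genes. By single arrays, 15 members had their highest value in ES20 and 8 in ES25 (4.60% and 3.36% of all genes). By the same count, 27 of the 42 had their lowest value in ES4, as had 16.12% of all genes, and that array also had the lowest median gene value, 7.01 in a range of 7.01 to 7.46.

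**Figure D2:**
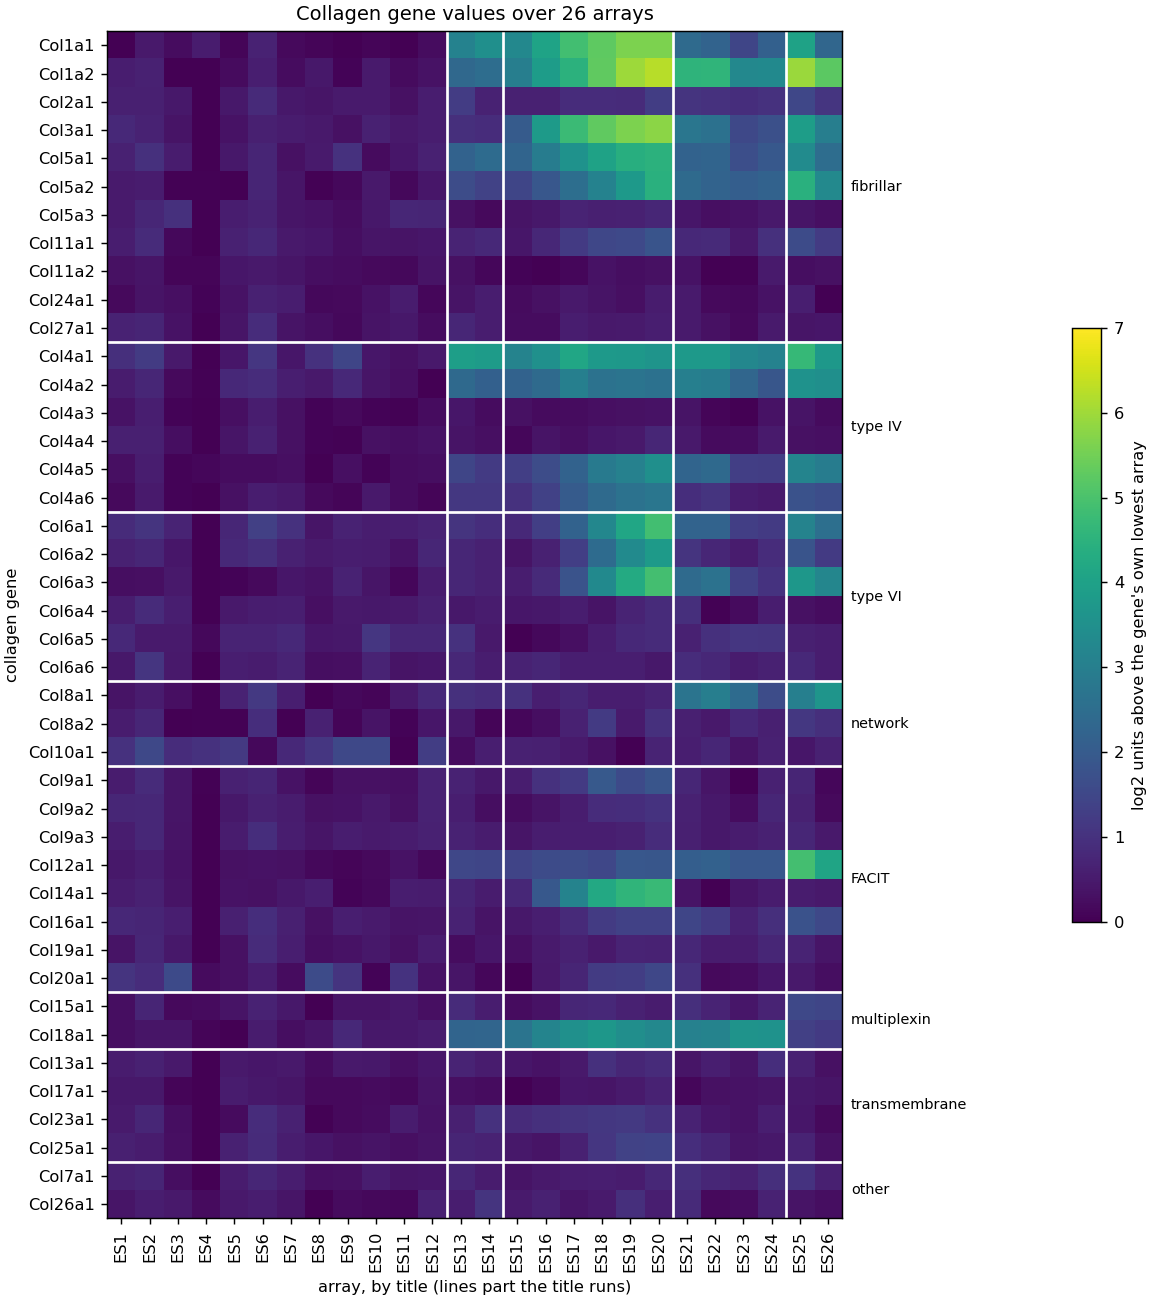
Gene values of the 42 collagens (rows, by class) in the 26 arrays (columns, in title order), coloured by log2 units above each gene's own lowest array. White lines part the classes and the title runs. The rows with all 14 arrays from ES13 on above ES1 to ES12 are 5 fibrillar, 3 type IV, 1 FACIT and 1 multiplexin, while Col6a1 and Col6a2 exceed ES1 to ES12 in ES17 to ES20 and not in ES13 to ES16, Col8a1 exceeds it in ES21 to ES26 alone, and transmembrane rows stay dark, with run medians that span under 1.

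Type I collagen, the main collagen of bone, skin and tendon, is a trimer of 2 chains encoded by Col1a1 and 1 by Col1a2, and Col1a2 showed the largest difference of the class. Col1a2 lay between 6.54 and 7.17 in ES1 to ES12, with a median of 6.84. It was 8.91 and 9.03 in ES13 and ES14, between 9.54 and 12.80 in ES15 to ES20 (median 11.43), 11.08, 11.12, 9.82 and 9.86 in ES21 to ES24, and 12.49 and 11.78 in ES25 and ES26. No array after ES12 overlapped those before. By label it averaged 11.19 ± 1.12 (SD, n = 12) and 7.16 ± 0.79 (SD, n = 14), which is 16.3-fold higher in C57BL/6 (4.03 ± 0.36 on the log2 scale, SE; limma adjusted p = 1.05e-08), and 4.33 without ES13 and ES14. Without ES1 to ES12 the difference was 2.22 ± 0.74 and was not called (limma adjusted p = 0.309).

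Col1a1 was ordered differently over the runs. Its values ran from 7.38 to 8.05 in ES1 to ES12 (median 7.52) and were 10.49 and 10.87 in ES13 and ES14. They ran from 10.64 to 13.00 in ES15 to ES20 (median 12.45), were 9.79, 9.60, 8.83 and 9.54 in ES21 to ES24, and 11.41 and 9.70 in ES25 and ES26. ES13 and ES14 thus lay above ES21 to ES24 for Col1a1 and below them for Col1a2, whose partner chain it is, and that difference in order was not tested. The difference between labels was 2.95 ± 0.49 log2 units (SE), 7.71-fold (limma adjusted p = 2.35e-05), and 3.39 ± 0.41 without ES13 and ES14. Without ES1 to ES12 it was 0.31 ± 0.99 and was not called (limma adjusted p = 0.953).

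Col3a1, the single chain of type III collagen of vessels and soft tissues, had low values in ES13 and ES14 as well as in ES1 to ES12. It ran from 6.49 to 7.30 in ES1 to ES12 and was at 7.42 and 7.37 in ES13 and ES14. In title order it was 8.50, 10.30, 11.26, 11.78, 12.12 and 12.28 in ES15 to ES20, then 9.23, 9.09, 8.02 and 8.19 in ES21 to ES24, and 10.40 and 9.49 in ES25 and ES26. The later arrays of ES15 to ES20 were the brightest and ES15 the dimmest of that run. The difference by label was 3.02 ± 0.39 log2 units (SE), 8.12-fold (limma adjusted p = 1.07e-06), and 3.08 without ES13 and ES14.

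Type V chains, which nucleate and limit the width of type I fibrils, followed type I in part. Col5a1 was between 6.45 and 7.44 in ES1 to ES12, 8.65 and 8.91 in ES13 and ES14, 8.70 to 10.96 in ES15 to ES20 (median 10.25), 8.13 to 8.70 in ES21 to ES24, and 9.84 and 8.95 in ES25 and ES26. Col5a2 was between 5.79 and 6.52, then 7.43 and 7.18, then 7.26 to 10.22 (median 8.61), then 7.89 to 8.22, and 10.23 and 9.09 in those runs. They were 4.52-fold and 5.14-fold higher by label (differences of 2.18 ± 0.32 and 2.36 ± 0.29 log2 units, SE; limma adjusted p = 4.27e-06 and 4.42e-07), and without ES13 and ES14 the differences were 2.43 and 2.54. Col5a3, the third type V chain, was not called, at -0.01 ± 0.10, and stayed between 6.66 and 7.63 in every array.

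Cartilage-type fibrillar genes differed by less. Col2a1, the main collagen of cartilage, was 8.07 ± 0.24 (SD, n = 12) by label C57BL/6 and 7.64 ± 0.28 (SD, n = 14) by 129S2/SvPas, higher by 0.43 ± 0.11 log2 units (SE; limma adjusted p = 0.00219; 0.50 without ES13 and ES14). Its 26 values ran from 7.09 in ES4 to 8.57 in ES25, and the labels overlapped. Col11a1, a type XI chain, was higher by 0.60 ± 0.14 (limma adjusted p = 0.00114), with its brightest arrays at 7.89 in ES20 and 7.67 in ES25. Col11a2, Col24a1 and Col27a1 were not called, with differences of -0.06, -0.003 and -0.03. Of 7 chondrocyte markers, 2 were higher by label (Sox9 and Matn3), a share near the 22.1% of all genes, and 4 without ES13 and ES14, and their mean level per array lay between 5.32 and 6.57. The cartilage proteoglycan Acan stayed between 4.99 and 6.32, and the link protein Hapln1 was at 3.29 to 4.20 in ES1 to ES12 and ES21 to ES24, 6.91 to 8.57 in ES13 to ES20, and 3.78 and 3.51 in ES25 and ES26.

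**Figure D3:**
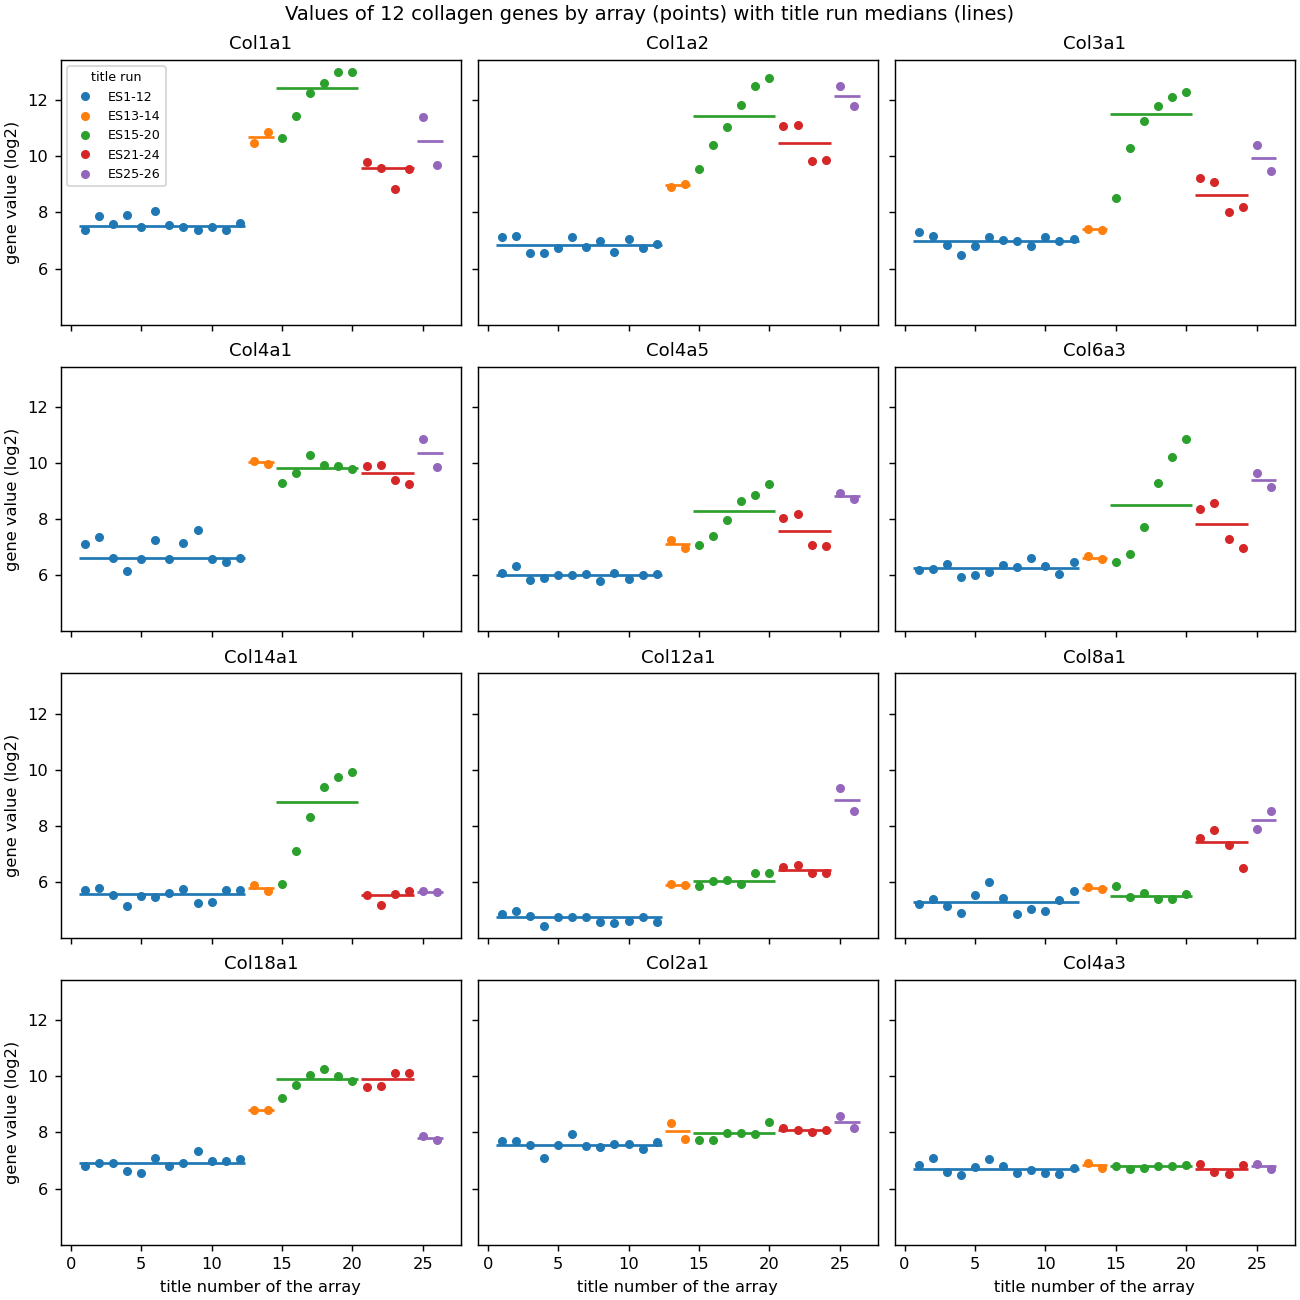
Gene values (vertical axis, log2) of 12 collagen genes in each array (points, horizontal axis in title order), coloured by title run, with lines at the run medians. Col1a1, Col1a2 and Col3a1 reach 12 or more within ES15 to ES20, Col14a1 exceeds 7 in ES16 to ES20 and in no other array, Col12a1 is brightest in ES25 and ES26, and Col4a3 lies between 6.50 and 7.08 throughout.

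Type IV divided in part by chain pair. Mouse type IV collagen assembles as trimers of the ubiquitous Col4a1 and Col4a2 chains, of Col4a3, Col4a4 and Col4a5, or of Col4a5 and Col4a6, and each pair of genes lies head to head in the genome. Col4a1 was between 6.15 and 7.61 in ES1 to ES12 and between 9.25 and 10.85 in all 14 others, with 10.07 and 9.98 in ES13 and ES14, 9.29 to 10.30 in ES15 to ES20, 9.90, 9.93, 9.39 and 9.25 in ES21 to ES24, and 10.85 and 9.87 in ES25 and ES26. After ES12, ES13 and ES14 lay above ES21 to ES24 and within the range of ES15 to ES20. Col4a1 was 5.81-fold higher by label (2.54 ± 0.36 log2 units, SE; limma adjusted p = 2.57e-06) and 2.99 ± 0.18 higher without ES13 and ES14, whereas without ES1 to ES12 the difference was -0.20 ± 0.31 and not called (limma adjusted p = 0.891).

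Col4a2 ran from 6.60 to 7.50 in ES1 to ES12 and from 8.46 to 10.17 in the others, highest at 10.17 and 10.09 in ES25 and ES26. Its difference was 1.99 ± 0.24 log2 units (SE; limma adjusted p = 3.47e-07), and 2.25 without ES13 and ES14. Col4a5 and Col4a6 both had their highest value in ES20 but ordered the runs differently. The highest run median was in ES25 and ES26 for Col4a5 (8.83) and in ES15 to ES20 for Col4a6 (7.30). Col4a5 was 5.78 to 6.34 in ES1 to ES12, 7.24 and 6.97 in ES13 and ES14, 7.09 to 9.26 in ES15 to ES20 (median 8.31), 8.04, 8.17, 7.09 and 7.05 in ES21 to ES24, and 8.93 and 8.72 in ES25 and ES26. Col4a6 was 5.08 to 5.63, then 6.22 and 6.21, then 6.09 to 7.83 (median 7.30), then 5.99, 6.13, 5.64 and 5.58, and 6.85 and 6.73. They were 3.85-fold and 2.24-fold higher by label (limma adjusted p = 4.47e-07 and 0.000147), with differences of 1.94 and 1.16 log2 units, or 2.10 and 1.29 without ES13 and ES14. Col4a3 and Col4a4, the chains of the mature kidney glomerulus, lay between 6.48 and 7.24 in every array and were not called, with differences of 0.02 ± 0.08 and 0.05 ± 0.09.

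Extraembryonic endoderm, a known maker of type IV collagen in the early embryo, had 6 of 12 markers higher and 1 lower by label (8 and 1 without ES13 and ES14). Of all genes, 22.1% were higher and 21.1% lower (25.2% and 25.2% without ES13 and ES14). The mean of the 12 was 5.94 to 6.42 in ES1 to ES12, 7.11 and 7.20 in ES13 and ES14, 7.36 to 8.34 in ES15 to ES20, 6.70 to 6.83 in ES21 to ES24, and 6.64 and 6.76 in ES25 and ES26. The markers did not move together. Sparc had run medians of 10.95 in ES21 to ES24 and 11.57 in ES25 and ES26, against 6.86 in ES1 to ES12. Gata4, Lama1, Foxa2 and Sox7 also had higher medians in both of these later runs than in ES1 to ES12. Afp, Ttr, Apoa1 and Thbd had lower medians in both, and Sox17, Gata6 and Hnf4a were higher in ES21 to ES24 only. The medians of Afp, Ttr, Apoa1, Sox7 and Sox17 in all of these runs were below the dim guide of 6.14. In ES15 to ES20, Afp ran from 4.48 to 9.97 and Ttr from 7.41 to 10.43. The part of any cell type in these values was not tested.

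Type VI was split between its classic chains and 3 newer ones. Col6a1, Col6a2 and Col6a3, which assemble into 1 heterotrimer, had their 2 highest values in ES19 and ES20. Col6a3 was 5.94 to 6.62 in ES1 to ES12, 6.68 and 6.57 in ES13 and ES14, and 6.49, 6.77, 7.72, 9.27, 10.23 and 10.85 in ES15 to ES20. It was 8.35, 8.59, 7.29 and 6.96 in ES21 to ES24 and 9.64 and 9.15 in ES25 and ES26. ES15 and ES16 lay within or near the range of ES1 to ES14, while ES18 to ES20 were 2 or more log2 units above it. Col6a1 ran from 6.11 to 7.44 in ES1 to ES12 and reached 9.35, 10.25 and 10.98 in ES18 to ES20, and Col6a2 ran from 6.22 to 7.16 and reached 8.66, 9.58 and 10.03. ES25 and ES26 were at 9.24 and 8.67 for Col6a1 and at 8.03 and 7.42 for Col6a2.

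By label, Col6a3 was 4.40-fold higher (2.14 ± 0.37 log2 units, SE; limma adjusted p = 3.36e-05), Col6a1 3.21-fold (1.68 ± 0.33; adjusted p = 0.000153) and Col6a2 1.90-fold (0.93 ± 0.29; adjusted p = 0.0119). Leaving out ES13 and ES14 gave 2.19, 1.72 and 0.94. Col6a4, Col6a5 and Col6a6, which can take the place of the alpha 3 chain, were not called, with differences of -0.02, -0.02 and 0.14 and no run median more than 0.60 from another.

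Among the network collagens, Col8a1 had a pattern of its own. This chain of the lattice under corneal and vascular endothelium was 4.86 to 6.01 in ES1 to ES12, 5.83 and 5.75 in ES13 and ES14, and 5.41 to 5.85 in ES15 to ES20. It was 7.55, 7.85, 7.30 and 6.49 in ES21 to ES24 and 7.87 and 8.52 in ES25 and ES26, so that these 6 arrays lay above all 20 others. Its difference by label was 1.21 ± 0.31 log2 units (SE), 2.32-fold (limma adjusted p = 0.00251), and 1.29 without ES13 and ES14. Col8a2, its partner chain, differed by 0.38 ± 0.13 (adjusted p = 0.0175) and ranged from 6.10 to 7.28. ES25 and ES26, at 7.24 and 7.04, lay above ES1 to ES12, ES13 and ES14, and ES21 to ES24, and within the range of ES15 to ES20. Col10a1, the collagen of hypertrophic cartilage, was the 1 member lower in the arrays labelled C57BL/6, at 4.25 ± 0.21 (SD, n = 12) beside 4.64 ± 0.51 (SD, n = 14), which differ by -0.40 ± 0.15 (SE; limma adjusted p = 0.037). Its gene value, taken from 3 of its 5 probe sets, lay between 3.73 and 5.25 in every array. Of the 3, probe set 4521607 was brighter, with a mean of 7.73 in ES1 to ES12 and a difference of -0.24, and the others differed by -0.21 and -0.62. The difference was -0.48 without ES13 and ES14, and the call was lost in 11 of the 26 fits that left out 1 array (ES1, ES2, ES5, ES8, ES9, ES10, ES12, ES18, ES19, ES23 or ES25; adjusted p 0.0506 to 0.0693).

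The FACIT class held 2 members whose high values lay in 1 run each. Col14a1, undulin, which binds fibril surfaces in skin and tendon, was 5.94, 7.09, 8.30, 9.38, 9.73 and 9.90 in ES15 to ES20 in title order. In the other 20 arrays it lay between 5.16 and 5.88. The label C57BL/6 thus holds both the highest arrays and arrays at the level of ES1 to ES12. By label the difference was 1.39 ± 0.47 log2 units (SE; limma adjusted p = 0.017), 6.97 ± 1.84 (SD, n = 12) against 5.58 ± 0.22 (SD, n = 14), and the rank sum test did not call it. Without ES13 and ES14 it was 1.43.

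Col12a1, a FACIT chain of dense connective tissue and bone-forming layers, had its peak elsewhere, at 9.34 and 8.51 in ES25 and ES26. It was 4.43 to 4.98 in ES1 to ES12, 5.91 and 5.89 in ES13 and ES14, 5.86 to 6.32 in ES15 to ES20, and 6.52, 6.61, 6.33 and 6.32 in ES21 to ES24. ES1 to ES12 were the lowest 12 arrays, and no array besides ES25 and ES26 exceeded 6.61. The difference by label was 1.81 ± 0.30 log2 units (SE), 3.50-fold (limma adjusted p = 2.64e-05), and 1.98 without ES13 and ES14. Col14a1 and Col12a1, of like structure, thus had their highest arrays in different runs, and the test between runs was not made. Col16a1 was higher by 0.58 ± 0.13 (adjusted p = 0.000793), brightest in ES25 at 8.42. Col9a1, a type IX chain of cartilage fibrils and the eye, was higher by 0.45 ± 0.18 (adjusted p = 0.0464), from 7.08 to 8.48 in ES15 to ES20 against 6.55 to 7.39 in ES1 to ES12, and was not called in 15 of the 26 fits without 1 array (without ES1, ES3, ES4, ES7 to ES11, ES14 or ES16 to ES21; adjusted p 0.0512 to 0.0945). Col9a2, Col9a3, Col19a1 and Col20a1 were not called, with differences of 0.10, 0.05, 0.17 and -0.02.

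Both multiplexins were higher. Col18a1, whose C-terminal part is endostatin, was 6.54 to 7.35 in ES1 to ES12, 8.79 and 8.81 in ES13 and ES14, 9.24 to 10.25 in ES15 to ES20, and 9.62, 9.67, 10.13 and 10.12 in ES21 to ES24. It was 7.87 and 7.74 in ES25 and ES26, below every other array after ES12, while Col12a1 and Col4a2 were highest there. Its difference by label was 2.33 ± 0.29 log2 units (SE), 5.03-fold (limma adjusted p = 6.77e-07), and 2.60 without ES13 and ES14. Col15a1 went the other way over the runs, with its 2 highest arrays at 7.89 and 7.83 in ES25 and ES26 and 6.38 to 7.32 elsewhere, and differed by 0.34 ± 0.13 (adjusted p = 0.031). That call was lost without ES8, ES25 or ES26 (adjusted p 0.0534 to 0.0618).

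The transmembrane collagens Col13a1, Col17a1, Col23a1 and Col25a1 were not called, with differences of 0.15, 0.07, 0.29 and 0.26 log2 units (limma adjusted p = 0.185, 0.521, 0.0732 and 0.0887). Col23a1 was called without ES13 and ES14 (0.35; adjusted p = 0.0243), and its values ran from 7.25 to 7.79 in ES13 to ES20 against 6.64 to 7.52 in ES1 to ES12 and 6.83 to 7.31 in ES21 to ES26. Col25a1 reached 6.97, 7.23 and 7.26 in ES18 to ES20 and lay between 5.85 and 6.76 elsewhere. Col7a1, the anchoring fibril of the skin, differed by 0.20 ± 0.09 (adjusted p = 0.0795; 0.0495 without ES13 and ES14), and Col26a1 by 0.10 ± 0.11 (adjusted p = 0.501).

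Probe sets of 1 gene gave unlike differences. In Col1a1, the 28 probe sets of the brighter 50% had differences by label from 0.74 to 4.32 log2 units (median 2.67), in Col1a2 33 had 1.52 to 5.54, and in Col3a1 30 had 0.86 to 6.38. The same held for Col4a1, where 34 probe sets ran from 0.08 to 4.66. Those with high values in ES1 to ES12 had the smaller differences. Since the mean over ES1 to ES12 enters both quantities, the slope in the plot is a description and was not tested. The size of a collagen's difference therefore depends on which probe sets stand for it. In 16 members, over 95% of the probe sets were higher in the arrays labelled C57BL/6. That count was not made for all genes, so it is a description only.

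**Figure D4:**
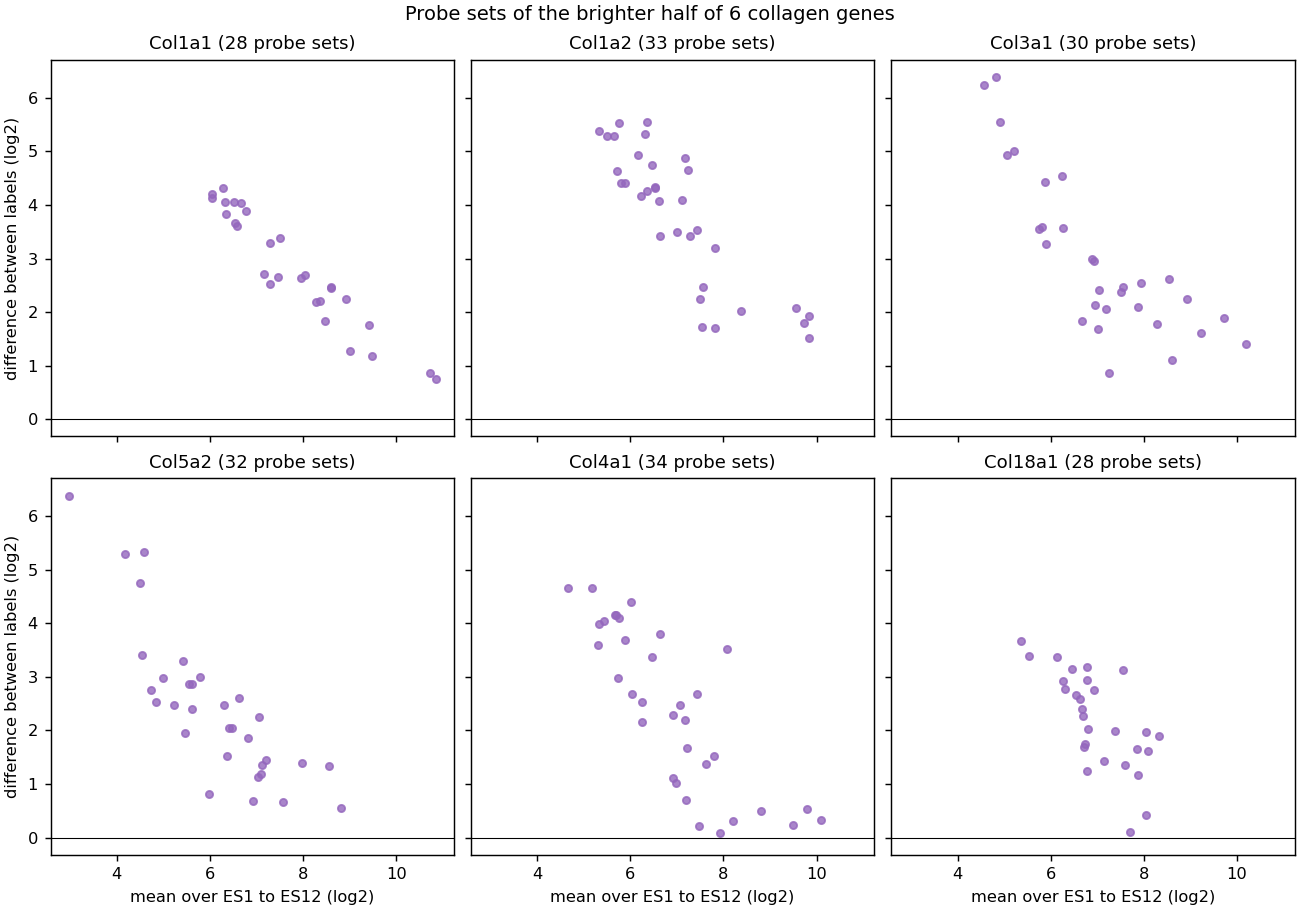
Probe sets of the brighter 50% of 6 collagen genes, with the mean over ES1 to ES12 (horizontal axis, log2) and the difference between arrays labelled C57BL/6 and 129S2/SvPas (vertical axis, log2). In each gene the points farthest right have smaller differences than those farthest left, and in Col1a1 the differences run from 4.32 down to 0.74.

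A probe set that departs from its gene was sought by subtracting the gene value of the same array. This was done where both gene and probe set were above the medians, which left 608 probe sets in 18 collagens out of 133968. Where the difference had to exceed 1 log2 unit, 22 of the 608 were higher than their gene in the arrays labelled C57BL/6 and 16 were lower (limma treat, adjusted p under 0.05), against 0.188% and 0.225% of all probe sets tested. They lay in 7 genes: 6 higher and 9 lower in Col1a2, 9 and 2 in Col3a1, 3 and 1 in Col5a2, 2 and 0 in Col1a1, 2 and 0 in Col6a1, 0 and 2 in Col18a1, and 0 and 2 in Col4a1. All 22 higher ones were below 6.2 in every array of ES1 to ES12, so they passed the brightness filter, set on the mean over all arrays, through the later arrays, and their count is a description that supports nothing. All 16 lower ones averaged above 6.2 there, a level chosen after the values were seen. Without ES13 and ES14 the counts were 57 and 53, and without ES1 to ES12 they were 0 and 0.

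The largest departure was probe set 5560894 of Col1a1. In ES1 to ES12 its values ran from 2.23 to 3.24, beside 10.41 and 10.89 in ES13 and ES14. It ran from 10.45 to 13.07 in ES15 to ES20, was 9.56, 9.52, 8.45 and 8.64 in ES21 to ES24, and 11.36 and 9.63 in ES25 and ES26. From ES13 on these values were close to the gene value, so the departure of 4.06 ± 0.51 log2 units (SE) comes from ES1 to ES12, where the gene value was 7.38 to 8.05. In Col3a1, probe set 5523434 departed by 3.88 ± 0.34, with 2.24 to 4.09 in ES1 to ES12 and 6.53 and 12.58 as its lowest and highest values after. Probe set 4690773 of Col5a2 departed by 2.96 ± 0.32, 4970127 of Col1a2 by 2.83 ± 0.36 and 4680764 of Col6a1 by 2.82 ± 0.25. In the other direction, probe set 4392499 of Col18a1 departed by -2.39 ± 0.30 (limma treat adjusted p = 0.0157): it stayed between 6.97 and 8.07 in all 26 arrays while its gene value ran from 6.54 to 10.25.

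Genes that build, trim, bind and degrade collagen were read beside the members, from 4 lists. Of 48 measured, 27 were higher and 7 lower in the arrays labelled C57BL/6 (limma, same background of 22.1% and 21.1%), 29 were higher and 9 lower without ES13 and ES14, and without ES1 to ES12 none was called (8 had an unadjusted p under 0.05). In the group for modification and folding in the endoplasmic reticulum, 10 of 19 were higher and 3 lower, with a median difference of 0.60. P3h4, a partner of the prolyl 3-hydroxylases, was 17.7-fold higher (4.15 ± 0.36 log2 units, SE; limma adjusted p = 1.05e-08), at 4.51 to 5.61 in ES1 to ES12 and 7.99 to 10.60 in the others. Fkbp14, a prolyl isomerase, was higher by 3.74, P4ha2, a prolyl 4-hydroxylase subunit, by 2.79, and Plod2, the lysyl hydroxylase of telopeptides, by 2.66. These 4 had all 14 arrays after ES12 above the 12 before except P4ha2, whose lowest array after ES12, at 7.63 in ES24, was below its highest before, at 7.91.

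For processing and crosslinking outside the cell, 10 of 12 genes were higher and none lower, with a median difference of 1.51. Pcolce, which speeds the removal of the C-terminal propeptide, was 20.4-fold higher (4.35 ± 0.36 log2 units, SE; limma adjusted p = 5.62e-09), from 5.93 to 6.97 in ES1 to ES12, 8.63 to 11.61 in ES13 to ES24, and 12.27 and 12.42 in ES25 and ES26. Bmp1, the propeptide protease itself, was higher by 3.10, Loxl2, a lysyl oxidase, by 3.49, and Pcolce2 by 2.80. Pcolce2 was 3.91 to 5.01 in ES1 to ES12, 8.59 and 7.21 in ES13 and ES14, and 5.45 to 7.01 in ES15 to ES20. It was 9.51 to 10.11 in ES21 to ES24, and 8.72 and 9.51 in ES25 and ES26. ES15 to ES20, where the fibrillar collagens were high, thus lay above ES1 to ES12 and below the other later runs for Pcolce2.

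Collagen receptors went both ways, with 5 of 10 higher and 2 lower, beside 22.1% and 21.1% of all genes. The share of lower receptors was thus near that of all genes. Ddr2, a receptor kinase for fibrillar collagen, was higher by 2.52 ± 0.43 log2 units (SE; limma adjusted p = 3.22e-05), and Mrc2, which takes up collagen for breakdown, by 2.39. Lair1, an inhibitory receptor of leukocytes, fell by 3.43 (10.7-fold) and Itga1, the collagen-binding integrin chain, fell by 1.84. Of the degradation genes, 2 of 7 were higher and 2 lower, both shares near those of all genes. Mmp14 and Mmp2, a membrane protease and the gelatinase it activates, were higher by 2.99 and 3.00, whereas Mmp8, the neutrophil collagenase, was 125-fold lower (-6.96 ± 0.85; adjusted p = 5.21e-07) and Mmp13 fell by 1.60. Mmp8 ran from 9.94 to 12.66 in ES1 to ES12 and from 2.88 to 5.00 in the other 14 arrays.

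Markers of other cell types differed between the runs, some along with the collagens and some not. The mean of 12 fibroblast markers was 5.11 to 5.78 in ES1 to ES12, 6.80 and 7.43 in ES13 and ES14, 7.62 to 9.20 in ES15 to ES20, 5.99 to 7.09 in ES21 to ES24, and 7.41 and 7.51 in ES25 and ES26, and 11 of the 12 were higher by label and 1, Thy1, was lower. The mean of the 11 fibrillar collagens was 6.72 to 7.35, 7.92 and 7.89, 7.92 to 9.55, 7.76 to 8.29, and 9.06 and 8.44 in the same runs. The fibroblast markers did not move together. In ES25 and ES26, medians of Lum, Dcn, Tcf21 and Meox1 (2.79, 4.47, 3.84 and 6.32) were near those of ES1 to ES12 (3.33, 4.17, 3.80 and 6.08). In ES15 to ES20, Lum, Dcn and Tcf21 had medians of 8.90, 8.85 and 7.84. Prrx1 (4.40 in ES1 to ES12 and 11.30 in ES25 and ES26), Fbn1, Postn, Twist1, Twist2, Pdgfra and Pdgfrb were higher in ES25 and ES26. The mean of the endothelial markers (4 of 7 higher, 1 lower) was 6.52 to 7.15 in ES1 to ES12, 7.88 and 8.60 in ES13 and ES14, 8.87 to 9.61 in ES15 to ES20 and 6.62 to 7.17 in ES21 to ES24. In ES25 and ES26 it was 5.52 and 5.77, below every other array, beside 9.06 and 8.44 for the fibrillar collagens. Run medians in ES1 to ES12 and in ES25 and ES26 were 11.09 and 5.03 for Pecam1 and 8.49 and 7.01 for Eng. They differed by less in Cdh5 (5.50 and 5.46), Tek (4.62 and 4.62), Esam (5.63 and 5.47), Tie1 (7.33 and 7.03) and Kdr (5.47 and 4.90). The mean of the epithelial markers (6 of 7 higher) was 8.69 to 9.82 in ES13 to ES24, 6.60 and 7.27 in ES25 and ES26, and 5.73 to 6.27 in ES1 to ES12. All 9 myeloid markers were lower and all 8 pluripotency markers higher by label, beside 22.1% of all genes higher and 21.1% lower. Without ES13 and ES14 these counts were the same for the fibroblast, epithelial, myeloid and pluripotency markers, and 5 higher and 1 lower for the endothelial ones. The part of these cell types in the collagen differences was not tested.

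**Figure D5:**
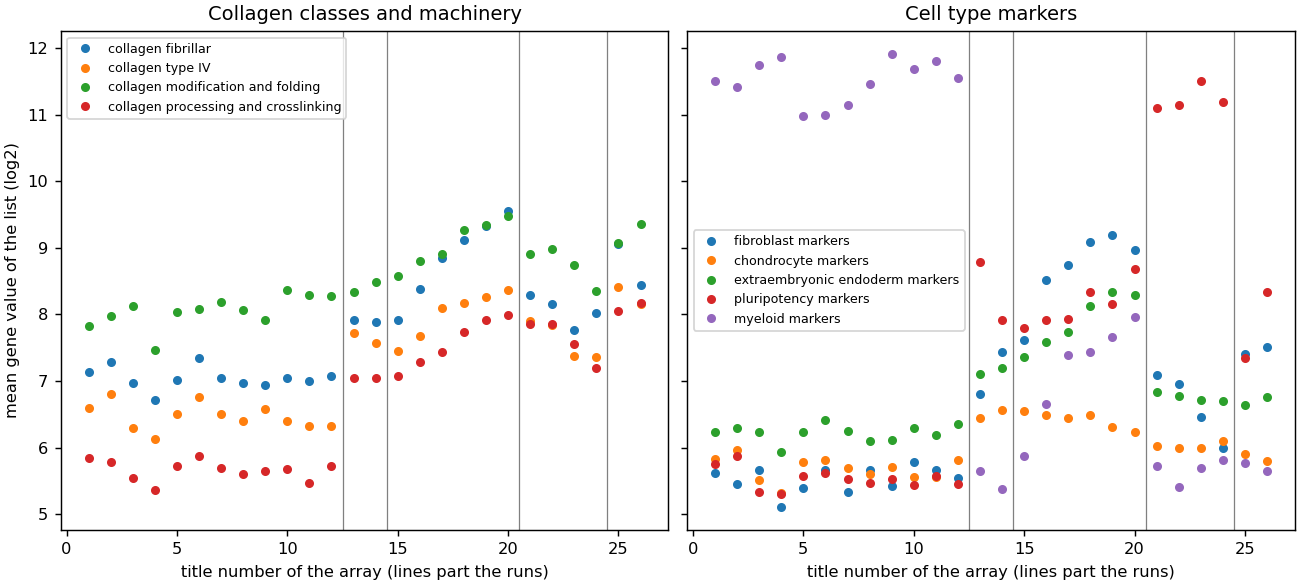
Mean gene value of each list (vertical axis, log2) in each array (points, horizontal axis in title order), with collagen classes and collagen-handling genes on the left and cell type markers on the right, and vertical lines between the title runs. Fibrillar collagens reach 9.55 in ES20 and 9.06 in ES25, and the myeloid markers are at 10.98 or more in ES1 to ES12 and at 7.96 or less elsewhere.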

How the data were processed

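Per the submitters' processing notes, arrays were processed in Affymetrix Expression Console, and the deposited table holds, per the labels, RMA values of an extended-exon analysis, here taken as log2 from their range (0.831 to 15.638). RNA was amplified in 2 rounds, per the labels' protocols. Background correction, normalization and probe summary were thus done by the authors, and arrays give no read depth: the number of arrays limits the precision. The table held 631748 probe sets in 26 arrays, of which 306069 (48.4%) had 1 gene symbol in the platform annotation, 6067 several and 319612 none. Gene values (median of the brighter 50% of a gene's probe sets, at least 4) were computed from these. Strain labels were compared with limma 3.58.1 in R 4.3.3 (lmFit, eBayes with trend, two-sided, Benjamini-Hochberg over all 18341 genes, threshold 0.05), and probe sets within genes with limma's treat. Both were also run on simulated data with independent noise. Such data lack the differences between title runs within a label, so these simulations say nothing about their effect on the p-values. No 2 arrays held identical values. Promoter windows and current symbols came from RefSeq, assembly GRCm38.p6.

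The members and lists were chosen with earlier results of these data known. Named were all collagen members, the 4 largest called differences in each of the 4 lists of collagen-handling genes, and the 6 largest called probe sets within genes, 1 per gene. Marker genes and a few others beside a list were named for their role. Of the list genes, Fkbp10, Lox, Elane and Cldn5 were not analysed here. Alternatives covered the gene value, the minimum of probe sets, dim genes, normalization, the limma settings, a rank sum test, thresholds and arrays left out. The planned description of collagen proteins was not made.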

Additional observations from a re-analysis of the deposited data

How the results depend on the processing

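Of the 23 called collagens, all kept their direction and call under the median or the mean over all probe sets, limma without a trend, robust eBayes, array weights, and without ES13 and ES14. Col15a1, Col8a2 and Col9a1 lost their call under centring and quantile normalization, Col10a1, Col14a1 and Col9a1 under the rank sum test, and Col9a1 with at least 1 probe set. Without ES1 to ES12, which leaves 2 arrays against 12, the counts were 0 higher and 0 lower, and Col10a1 (0.11) and Col4a1 (-0.20) had the opposite sign, neither of them called. The number of higher collagens was 11 without the dimmer 50% of genes, which left 18 members, and 10 where limma required at least 1 log2 unit. The number of lower collagens was 2 with the mean over all probe sets and 0 with at least 8 probe sets (Col10a1 has 5), without the dimmer genes, under the rank sum test, with the minimum difference or at an adjusted p under 0.01. Leaving out each array in turn gave 20 to 24 higher and 0 to 1 lower. Collagen-handling genes gave 0 and 0 without ES1 to ES12. Probe sets within genes gave 181 higher and 183 lower with no minimum difference, 78 and 33 of 2182 with no filter on dim probe sets, 27 lower with the mean as gene value, 57 and 53 without ES13 and ES14, and 0 and 0 without ES1 to ES12. The causes were not tested, except that fewer genes or arrays entered some settings. The number of members whose run medians span 2 or more was 15, 17 with the median over all probe sets and 14 after centring. No paired analysis was possible because the labels give the strains no shared replicate numbers. The protein description was not run.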

Other observations

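Single probe sets could differ between the runs by more than their gene value did, and 3 are given here with no test, chosen after their values were seen. Probe set 4481412 of Col4a3 ran from 8.50 to 10.50 in ES1 to ES12 and lay between 5.09 and 6.82 in the 14 other arrays, a difference between labels of -2.89 log2 units, while the gene value stayed between 6.50 and 7.08. Probe set 4605090 of Col20a1 ran from 7.59 to 8.45 in ES1 to ES12 and lay between 4.76 and 6.60 in the others (-1.87). In Col2a1, whose gene value differed by 0.43, probe set 5076485 differed by 2.64: it ran from 4.31 to 6.01 in ES1 to ES12 and from 6.70 to 9.07 in ES13 to ES24, and was 9.70 and 10.11 as the lower and higher of ES25 and ES26.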
